A study of Homo sapiens with 38 samples.

Results

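KHDC3L, OOEP, NLRP2, NLRP7 and PADI6 encode proteins of the subcortical maternal complex of the human oocyte or proteins that work with it. The 5 genes were taken from the count table by symbol, out of 57133 genes measured. All 5 were present in the table, and 4 of them passed the filter on low counts that left 16674 genes for testing. PADI6 did not pass it.

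The libraries came from Shef6 cells, an established human embryonic stem cell line held in the naive state, which resembles the epiblast before implantation. The naive cultures grew in PXGL, which combines LIF with blockers of the kinases MEK and PKC and of tankyrase, either on a coating of serum (2 libraries) or on Geltrex, a basement membrane extract (2 libraries in the first experiment, Ex1, and 2 in the second, Ex2). For differentiation, serum-adapted naive cells were plated on Geltrex with a ROCK inhibitor and moved out of PXGL into N2B27, a basal medium with no added growth factor (days 2, 3, 4, 6 and 8 in Ex1, and day 4 in Ex2), into E8 (the same 5 days, Ex1) or mTeSR (days 4, 6 and 8, Ex1), media for primed stem cells that hold FGF2 and a TGFβ family factor, or into N2B27 to which XAV939, a tankyrase inhibitor, had been added alone (XAV) or together with FGF2 and Activin A (FAX), both at day 4 of Ex2. Each of these 19 groups had 2 libraries, 38 in all. The study's legends call the libraries of a group technical replicates in some places and biological replicates in another, so whether they came from separate cultures is not settled. The p-values measure the spread between these libraries, which may be technical. The naive libraries of Ex2 are labelled day 0 by title and day 4 by library name, and the titles were followed, so their time in culture on Geltrex is uncertain. By library name all naive libraries are PXGLY and those on serum GelFBS, where the titles say PXGL and serum. The labels do not explain these names. The study added a ROCK inhibitor to the naive medium after passaging.

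The complex lies under the plasma membrane of the oocyte and of the cleaving embryo, and its genes are known for their maternal effect: the embryo depends on the product laid down by the mother. KHDC3L and OOEP belong to a family of small proteins with a KH domain, an RNA-binding fold. NLRP2 and NLRP7 belong to the NLRP family, whose members carry a pyrin domain, an ATP-binding NACHT domain and leucine-rich repeats, and PADI6 to the peptidylarginine deiminases. Maternal variants in NLRP7 and KHDC3L are known for recurrent hydatidiform mole, in which maternal imprints are missing, and naive stem cells are known for low DNA methylation.

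The members lie in 3 places of the genome. On chromosome 6 (GRCh38, GENCODE release 44) KHDC3L, a gene of 3 exons, spans chr6:73362658-73364171 on the forward strand, and OOEP, also of 3 exons in its canonical transcript, spans chr6:73368555-73395133 on the reverse strand. The 3′ ends of these neighbours face each other. On chromosome 19, NLRP7 (chr19:54923509-54966312, reverse strand) and NLRP2 (chr19:54953130-55001142, forward strand), each of 13 exons in the canonical transcript, overlap as annotated and run in opposite directions. The canonical starts of the pair are 130 bases apart, head to head. PADI6, of 16 exons, lies at chr1:17372196-17401699 on the forward strand. The assay reads the 3′ end of polyadenylated RNA, and over the last 500 bases of each canonical transcript no annotated exon of another gene overlapped any of the 5 members. Of the 451 windows of 50 bases in those ends, none occurred in a transcript of another gene for KHDC3L, NLRP2, NLRP7 and PADI6, so the paralogs NLRP2 and NLRP7 shared no such window. For OOEP, 7 of the 451 windows occurred in its pseudogene OOEPP2.

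The upstream sequences of the 4 measured members are given because neighbours on 1 chromosome differed in their course below. They are the 250 bases before the RefSeq start (GRCh38.p14), printed in the direction of transcription, with each match to the E-box CANNTG in capitals.
KHDC3L: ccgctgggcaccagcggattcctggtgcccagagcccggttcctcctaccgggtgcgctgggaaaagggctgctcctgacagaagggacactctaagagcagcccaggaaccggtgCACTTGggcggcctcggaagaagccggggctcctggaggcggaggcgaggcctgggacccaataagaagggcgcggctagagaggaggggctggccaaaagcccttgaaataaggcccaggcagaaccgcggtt
OOEP: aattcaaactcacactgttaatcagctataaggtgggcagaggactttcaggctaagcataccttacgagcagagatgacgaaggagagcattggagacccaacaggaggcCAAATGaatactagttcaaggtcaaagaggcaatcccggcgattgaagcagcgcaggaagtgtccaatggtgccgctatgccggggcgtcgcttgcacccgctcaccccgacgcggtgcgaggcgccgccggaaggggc
NLRP2: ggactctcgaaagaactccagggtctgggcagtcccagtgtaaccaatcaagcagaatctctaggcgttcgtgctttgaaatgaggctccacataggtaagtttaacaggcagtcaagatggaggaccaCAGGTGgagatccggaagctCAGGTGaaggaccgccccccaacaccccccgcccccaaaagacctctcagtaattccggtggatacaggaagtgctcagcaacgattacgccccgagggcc
NLRP7: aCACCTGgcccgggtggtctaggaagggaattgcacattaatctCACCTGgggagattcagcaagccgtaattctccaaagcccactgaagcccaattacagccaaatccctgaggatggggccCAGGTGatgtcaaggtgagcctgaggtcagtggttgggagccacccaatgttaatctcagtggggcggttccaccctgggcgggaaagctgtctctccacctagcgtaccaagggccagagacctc
These lie at chr6:73362408-73362657 (KHDC3L, forward), chr6:73369898-73370147 (OOEP, reverse), chr19:54966124-54966373 (NLRP2, forward) and chr19:54947531-54947780 (NLRP7, reverse). The RefSeq start of NLRP7 is not the canonical start of GENCODE, which lies inside the window printed for NLRP2, and the assay does not read which start was used. Reading both strands, KHDC3L and OOEP had 1 E-box each, NLRP2 had 2 and NLRP7 had 3, and 62.2% of the 27305 RefSeq promoters hold at least 1. The CCAAT box (CCAAT) was found once before KHDC3L and NLRP2 and 2 times before OOEP and NLRP7, and in 33.0% of all promoters. A GC box (GGGCGG) was found once before KHDC3L, where it begins in the last base of the E-box, 2 times before NLRP2 and NLRP7, and not before OOEP, against 42.3% of all promoters. The octamer ATGCAAAT and the TFAP2 motif GCCNNNGGC matched none of these windows and 1.66% and 19.7% of all promoters. KHDC3L's window had 65.6% G and C with 15 CpG dinucleotides, OOEP's 56.4% with 17, NLRP2's 55.6% with 10 and NLRP7's 56.8% with 5, where the median promoter has 58.0% and 11.

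Library totals ran from 3038046 to 5612354 counts, and 3 counts, taken as the floor of detection, amounted to 0.520 to 1.06 CPM, the unit used for levels below, which is a count set relative to the scaled size of its library. All 9 naive markers, TFCP2L1 and DNMT3L among them, were measured in the naive libraries, where their summed level was 1725 to 1840 CPM, and the 7 primed markers summed to 21.9 to 29.9 CPM there and to 567 to 804 CPM in the day 8 libraries. The 2 E8 day 2 libraries had the lowest totals of Ex1 (3143033 and 3385716 counts), and replicates of E8 day 3, N2B27 day 3, E8 day 8 and N2B27 day 2 differed most beyond counting noise. A gene was called when its adjusted p (edgeR quasi-likelihood F-test, Benjamini-Hochberg over all genes tested) was under 0.05 and its log2 fold change was over 1 in size. Bulk RNA cannot tell fewer cells with a transcript from less transcript per cell.

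In naive cells, NLRP7 and NLRP2 transcripts were abundant, KHDC3L was well measured, OOEP was lower in counts, and PADI6 was at the floor. NLRP7, the NLRP member best known from molar pregnancy, had 2076 CPM in the lowest naive library, a median of 2544 and 3342 in the highest (2695 ± 518 CPM, SD, n = 6). NLRP2, its paralog, had 988, 1109 and 1219 CPM by the same order (1112 ± 75.6, n = 6). KHDC3L had 251, 276 and 298 CPM (277 ± 17.6), and OOEP 48.7, 65.1 and 79.1 CPM (66.0 ± 10.98). Counts behind these values were at least 9380 for NLRP7, 2893 for NLRP2, 806 for KHDC3L and 220 for OOEP in any naive library.

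PADI6, an oocyte enzyme needed for the cytoplasmic lattices in which the complex is stored, had 1, 2, 1, 3, 0 and 3 counts in the 6 naive libraries. In the other 32 libraries it had 0 to 2 counts, with 20 libraries at 0. No library passed the floor of 3 counts, so no single library measures its level or a loss. Summed over libraries, 10 counts in 25737954 gave 0.389 CPM of the unscaled totals in naive cells (95% exact Poisson interval 0.186 to 0.715), and 15 counts in 143508813 gave 0.105 CPM elsewhere (0.0585 to 0.172). These pooled intervals did not overlap, and they cover counting error only, not the spread between libraries.

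Other genes of the complex were also low. NLRP5, one of its core subunits, had at most 2 counts in any library. TLE6, another core subunit, had 0 to 21 counts, and ZBED3, described as a partner of the complex, had 6 to 73. Of these, TLE6 and ZBED3 were tested. TLE6 was not called against naive cells in any of the 15 comparisons, and ZBED3 was called higher at mTeSR day 6 (log2 fold change 1.11, SE 0.28, adjusted p 0.00143 by edgeR), as were 15.7% of all genes, and at E8 day 8 (1.35, SE 0.27, adjusted p 8.61e-05), as were 18.2%.

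**Figure D1:**
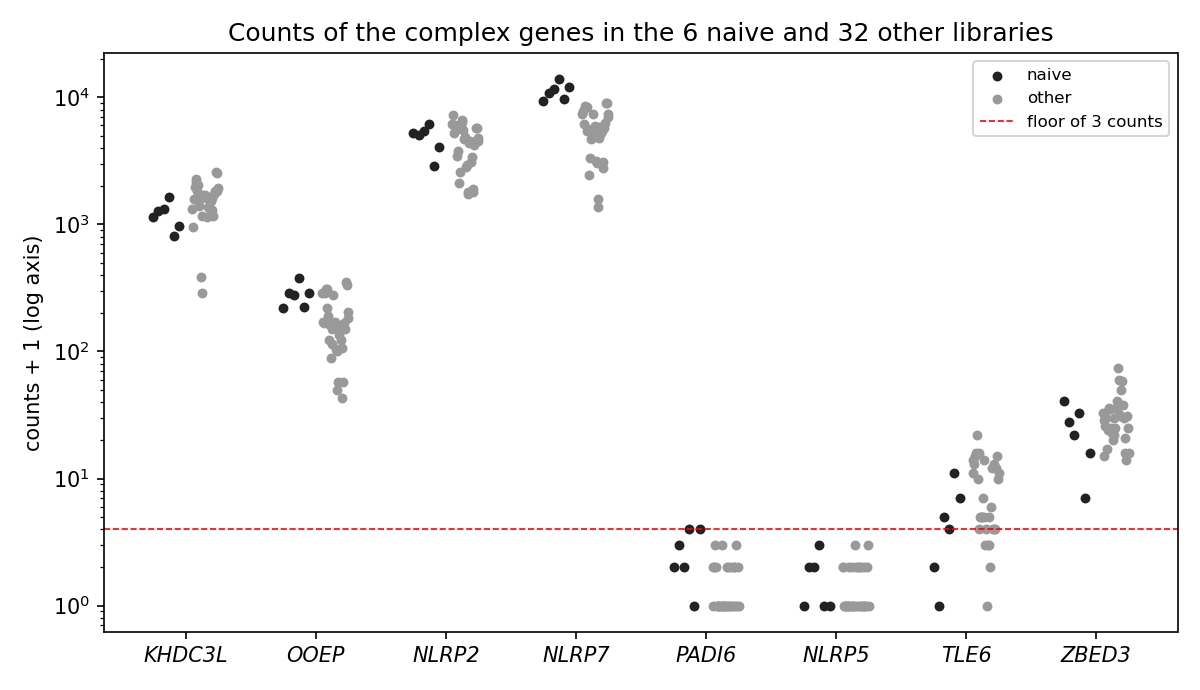
Counts of each gene of the complex in the 6 naive libraries (black) and the 32 other libraries (grey), as counts + 1 on a log axis, with the floor of 3 counts as a dashed line. KHDC3L, OOEP, NLRP2 and NLRP7 lie well above the floor in every library, and PADI6 and NLRP5 do not pass it in any.

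Between Geltrex and serum in Ex1 the log2 differences of the 4 members were 0.05 to 0.22, with adjusted p of 0.383 or more. Between the experiments, naive cells on Geltrex had 3308 and 3342 CPM of NLRP7 in Ex2 against 2590 and 2498 in Ex1 (log2 difference 0.39, SE 0.10, adjusted p 0.00938), a difference under the fold threshold. The day of the Ex2 libraries is the one labelled in both ways. OOEP was also highest in the Ex2 naive libraries, at 76.1 and 79.1 CPM against 62.2 and 67.5, and did not pass (adjusted p 0.373). The Ex2 naive libraries had 3038046 and 3642536 counts, with the fewest genes detected of all libraries (21018 and 21759). Their ribosomal protein shares were the highest of all, 12.42% and 12.32%. The part of these properties in the NLRP7 and OOEP values was not tested. Over the 12 values of naive cultures and of experiments edgeR made 0 calls, with 2 values at an unadjusted p under 0.05, and DESeq2 made 0. Among all genes 0.0240% to 2.34% were called in a direction in these comparisons, so that 0 calls among the members is near the background.

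Leaving PXGL, NLRP7 was lower at each sampled time and in each medium, OOEP and NLRP2 were called lower later, and KHDC3L was not lost. All 15 comparisons share the 6 naive libraries. Of 60 values of the 4 members against naive cells, 19 were called lower and 0 higher, where 5.83% to 10.7% of all genes tested were called lower and 9.78% to 18.2% higher per comparison. NLRP7 gave 8 of these calls, OOEP 7, NLRP2 3 and KHDC3L 1. At day 8, NLRP7, OOEP and NLRP2 were called lower, and KHDC3L was not, in N2B27 (3 of 4 tested, where 7.03% of all genes tested were called lower), in E8 (3 of 4, background 9.24%) and in mTeSR (3 of 4, background 8.20%). The median log2 fold change of the 4 members at day 8 was -1.25 in N2B27, -2.07 in E8 and -1.43 in mTeSR, beside medians over all genes of -0.03, 0.00 and -0.02.

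**Figure D2:**
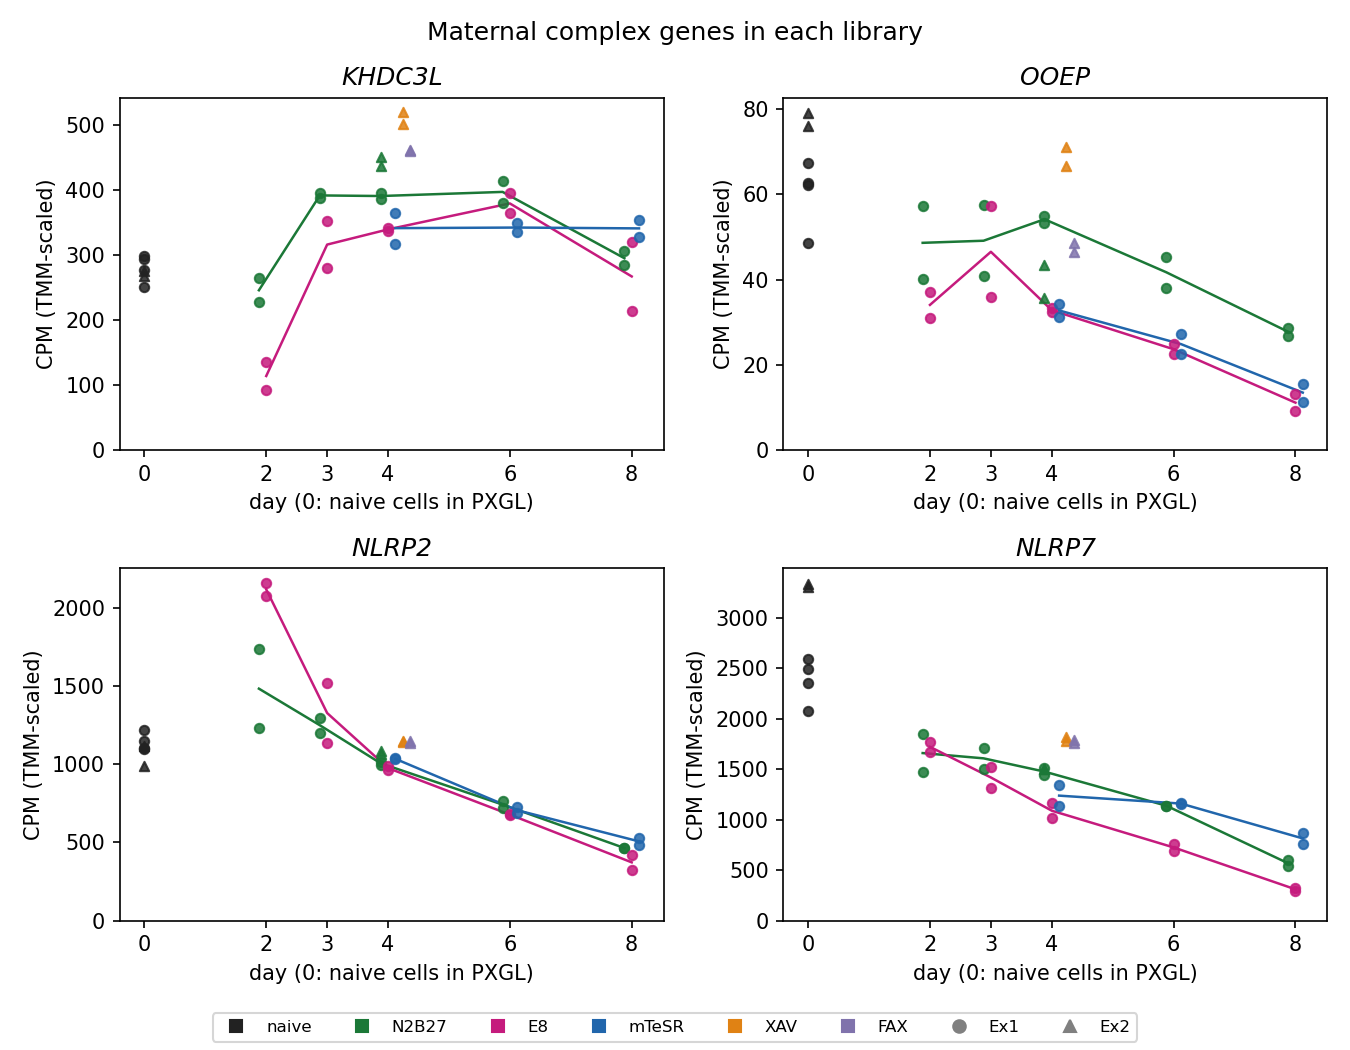
CPM of the 4 measured members in each library by day, with day 0 for naive cells; circles are Ex1, triangles Ex2, colours the media, and lines join the means of the 2 libraries of Ex1. NLRP7 and OOEP end lowest in E8 at day 8, NLRP2 peaks at day 2, and KHDC3L stays between 214 and 521 CPM outside E8 day 2.

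NLRP7 had 1472 and 1850 CPM at day 2 of N2B27, 1506 and 1712 at day 3, 1444, 1510, 1502 and 1499 at day 4, 1140 and 1138 at day 6, and 537 and 599 at day 8. In E8 it had 1675 and 1770, then 1317 and 1521, 1016 and 1163, 759 and 692, and 297 and 323 CPM over the same days. In mTeSR it had 1134 and 1344 at day 4, 1159 and 1161 at day 6, and 756 and 873 at day 8. No library outside PXGL reached the lowest naive library. The share of all genes with such a gap was not computed, so no background stands beside it. All 15 values against naive cells had an adjusted p under 0.05 in the lower direction, and the 8 called ones were at N2B27 day 6 (log2 fold change -1.24, SE 0.13, adjusted p 1.88e-09) and day 8 (-2.25, SE 0.14), at E8 days 4, 6 and 8 (-1.31, -1.89 and -3.12, the last with SE 0.15 and adjusted p 2.87e-18) and at mTeSR days 4, 6 and 8 (-1.12, -1.22 and -1.73). Against the naive libraries on serum alone, the calls at N2B27 day 6 (-0.96), mTeSR day 4 (-0.83) and mTeSR day 6 (-0.94) were lost, and that at mTeSR day 4 also against the naive libraries of Ex1 alone and without the first mTeSR day 4 library. Among all genes, 6.69% were called lower at N2B27 day 6, 7.21% at E8 day 4, 7.47% at E8 day 6, 6.93% at mTeSR day 4 and 6.87% at mTeSR day 6. The share of all genes at an adjusted p under 0.05 alone was not computed. At N2B27 day 4 the NLRP7 value was -0.86 over both experiments, -0.69 within Ex1 (adjusted p 6.57e-07) and -1.15 within Ex2 (adjusted p 3.84e-10), the latter past the fold threshold.

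OOEP, the KH domain protein that helps hold the complex together in the oocyte, had the lowest counts of the 4, down to 42 in a library. In N2B27 it had 57.2 and 40.1 CPM at day 2, 40.9 and 57.5 at day 3, 53.4, 55.0, 43.5 and 35.7 at day 4, 45.4 and 38.1 at day 6, and 26.9 and 28.7 at day 8. In E8 it had 31.1 and 37.1, then 35.9 and 57.2, 32.4 and 33.3, 24.9 and 22.5, and at day 8 9.18 and 13.2 CPM. The mTeSR libraries, with 31.3 and 34.3, 27.2 and 22.6, and 11.4 and 15.7 CPM, kept close to E8. The N2B27 libraries overlapped the naive ones up to day 4 and lay below them from day 6. At N2B27 day 4 the log2 fold change was -0.48 over both experiments, -0.15 within Ex1 (adjusted p 0.489) and -0.97 within Ex2 (adjusted p 0.000148), under the fold threshold. OOEP was called lower at N2B27 day 8 (log2 fold change -1.24, SE 0.20, adjusted p 3.76e-06 by edgeR), at E8 days 6 and 8 (-1.47 and -2.57, the last with adjusted p 2.33e-11) and at mTeSR days 6 and 8 (-1.40 and -2.28). Against the naive libraries on serum alone the N2B27 day 8 value was -0.99 and not called. The calls at day 4 of E8 and of mTeSR, at -1.002 and -1.004, stood on the fold threshold, and each was lost under 10 of 12 other settings, with values as small as -0.75 and -0.76 against naive cells on serum alone.

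NLRP2 was not lowered at first. It had 2075 and 2161 CPM at E8 day 2, above each naive library (log2 fold change 0.93, SE 0.10, adjusted p 3.62e-09, under the fold threshold), and 1232 and 1734 at N2B27 day 2 (0.41, adjusted p 0.00189). The E8 day 2 libraries had the lowest totals of Ex1 and the highest mitochondrial shares of counts, 3.62% and 3.63%, and the part of this in the NLRP2 value was not tested. The N2B27 difference was 0.15 (adjusted p 0.442) without the second N2B27 day 2 library. From there it went to 1297 and 1201 in N2B27 and 1520 and 1134 in E8 at day 3, and at day 4 the 12 libraries of N2B27, E8, mTeSR, XAV and FAX had 964 to 1149 CPM. Among these, the 2 of E8 lay just below the lowest naive library and the others within the naive range. At day 6 it was at 673 to 762 CPM in all 3 media, with log2 fold changes of -0.58 to -0.71 that did not pass the fold threshold. It was called lower at day 8 alone, with 463 and 465 CPM in N2B27 (-1.26, SE 0.11, adjusted p 3.06e-11), 324 and 420 in E8 (-1.58, SE 0.12, adjusted p 1.76e-13) and 485 and 528 in mTeSR (-1.14, SE 0.11, adjusted p 3.02e-10). At day 2, where NLRP2 lay above the naive libraries, NLRP7 lay below them in both media (log2 fold changes of -0.70 in N2B27 and -0.64 in E8, under the fold threshold). Under other settings these NLRP7 values were as small as -0.41 in N2B27 and -0.33 in E8.

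KHDC3L, the other KH domain member known from molar pregnancy, was not lost on leaving PXGL. In N2B27 it had 265 and 228 CPM at day 2, 389 and 396 at day 3, 396, 387, 452 and 437 at day 4, 381 and 414 at day 6, and 306 and 285 at day 8. In mTeSR it stayed at 318 to 366 CPM over all 6 libraries. Of its 15 values against naive cells, 11 had an adjusted p under 0.05, 10 of them in the higher direction and all of these under the fold threshold, with the largest at day 4 in XAV (521 and 502 CPM, log2 fold change 0.88, SE 0.11, adjusted p 1.21e-07), FAX (463 and 460 CPM, 0.73, adjusted p 4.31e-06) and N2B27 (0.59, SE 0.09, adjusted p 3.19e-06). The smallest of the 10, 0.29 to 0.30 at E8 day 4 and at mTeSR days 4, 6 and 8, were not stable: with 1 library left out the adjusted p passed 0.05 in 2, 2, 13 and 16 of 38 fits. How many of all genes had an adjusted p under 0.05 alone was not computed, so these counts have no background. At day 8 it did not differ detectably from naive cells in N2B27 (0.09, adjusted p 0.5676) or E8 (214 and 320 CPM, -0.05, adjusted p 0.736).

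The single call of KHDC3L was at E8 day 2, with 135 and 93.5 CPM (log2 fold change -1.28, SE 0.13, adjusted p 2.24e-09), where 10.7% of all genes were called lower. By day 3 of E8 it was back at 281 and 352 CPM, and this step was called higher (log2 fold change 1.47, SE 0.14, adjusted p 6.99e-08), as were 4.32% of all genes. The low values came from the 2 libraries with the lowest totals of Ex1, whose mitochondrial shares are given above and whose ribosomal protein shares of counts were 11.8% and 11.9%. The part of these library properties in the KHDC3L value was not tested either. At the neighbouring times KHDC3L and NLRP2 also differed between replicates in opposite directions: at N2B27 day 2 the library with less KHDC3L had more NLRP2, and so did the first E8 day 3 library.

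**Figure D3:**
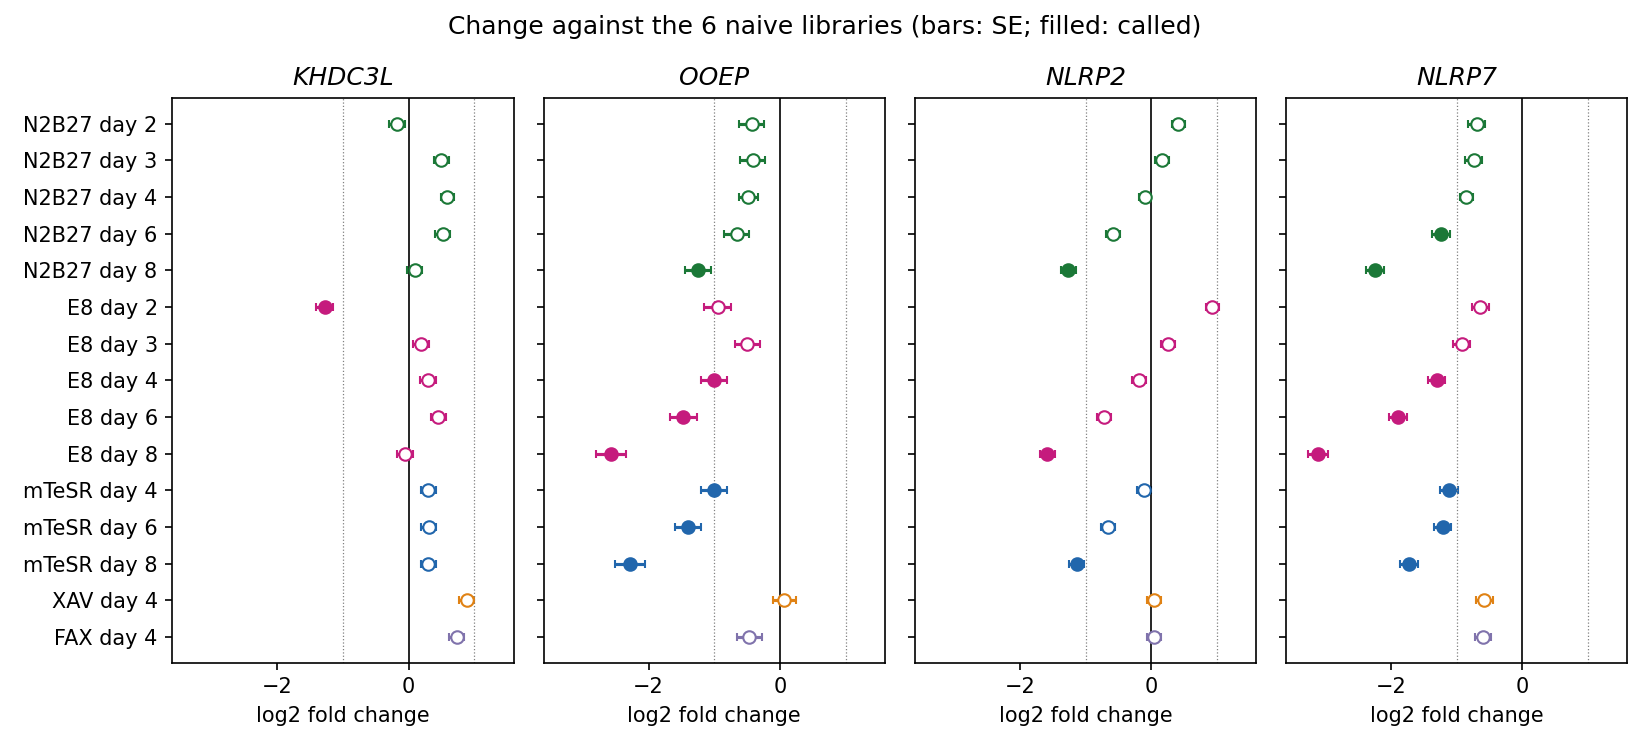
Log2 fold change of each measured member against the 6 naive libraries, by medium and day, with the standard error as bars; filled points were called, dotted lines mark the fold threshold. NLRP7 lies left of 0 in all 15 comparisons, KHDC3L lies right of 0 in all but N2B27 day 2, E8 day 2 and E8 day 8.

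Between media on the same day, E8 had less OOEP and NLRP7 than N2B27 from day 4 on. OOEP at day 8 was called lower in E8 than in N2B27 (log2 difference -1.33, SE 0.23, adjusted p 0.000102), where 3.96% of all genes were, and in mTeSR than in N2B27 (-1.04, SE 0.24, adjusted p 0.00336, background 2.15%). The mTeSR difference was lost without the first mTeSR day 8 library (-0.84, adjusted p 0.0805) or the second N2B27 day 8 library (-0.99). NLRP7 was lower in E8 than in N2B27 by log2 differences of -0.44 at day 4, -0.65 at day 6 and -0.87 at day 8 (adjusted p 2.92e-07), none past the fold threshold. It was called higher in mTeSR than in E8 at day 8 (1.39, SE 0.11, adjusted p 7.51e-11), as were 2.51% of all genes, while OOEP did not differ detectably there (0.29, adjusted p 0.533). KHDC3L at day 2 was called lower in E8 than in N2B27 (-1.11, SE 0.14, adjusted p 9.61e-06, background 1.72%), a call lost without the second E8 day 2 library (-0.86). Over the 56 values between media, these 4 were the calls.

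At day 4 of Ex2, the media with XAV939 gave 0 member calls against naive cells (8 values, of which 5 had an unadjusted p under 0.05, and DESeq2 made 0 calls). Among all genes, 6.54% were called lower and 10.5% higher in XAV, and 6.77% and 10.3% in FAX, so that 0 of 4 members is near the background. Among XAV, FAX and N2B27 there were also 0 calls (12 values, 4 at an unadjusted p under 0.05, 0 calls by DESeq2), and at most 0.534% of all genes were called in a direction there. OOEP was the member furthest apart: it had 71.2 and 66.7 CPM in XAV against 43.5 and 35.7 in N2B27 (log2 difference 0.80, SE 0.19, adjusted p 0.0175, under the fold threshold), and 46.6 and 48.5 in FAX. Against the naive libraries of Ex2 alone, NLRP7 gave log2 fold changes of -0.88 in XAV and -0.91 in FAX, and OOEP -0.17 and -0.71. The XAV libraries of OOEP were within the naive range of 48.7 to 79.1 CPM. NLRP7 had 1820 and 1781 CPM in XAV and 1787 and 1763 in FAX against 1502 and 1499 in N2B27, with adjusted p of 0.333 and 0.449.

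The step from day 6 to day 8 was where most calls between days fell. In N2B27, where 0.264% of all genes were called lower, the log2 change of NLRP7 over this step was -1.003 (SE 0.10, adjusted p 1.38e-07), a value at the fold threshold that lay under it in 8 of 9 other settings. In E8, where 0.288% of all genes were called lower, it was -1.23 (SE 0.11, adjusted p 1.37e-08). OOEP fell by 1.10 over the same step in E8 (SE 0.24, adjusted p 0.00947), a call lost without either E8 day 6 library or without the first E8 day 8 library (adjusted p up to 0.327, with a log2 difference of -0.85 without the latter). In mTeSR the step gave log2 differences of -0.51 for NLRP7 and -0.88 for OOEP, under the threshold.

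The course itself differed between media for some members, by an interaction of medium and day. From day 2 to day 8, the change of NLRP7 was lower in E8 than in N2B27 (interaction -0.93 on the log2 scale, SE 0.15, adjusted p 0.000105), as was that of NLRP2 (-0.83, SE 0.17, adjusted p 0.00195), while that of KHDC3L, from its low E8 day 2 value, was higher (0.96, SE 0.20, adjusted p 0.00186). With the compared libraries alone, the adjusted p by edgeR was 0.0751 for KHDC3L and 0.0624 for NLRP2, so that both no longer passed, while NLRP7 did. OOEP gave -0.82 (adjusted p 0.0956). All 4 of these values rest on the E8 day 2 libraries. From day 4 to day 8, the change of NLRP7 was higher in mTeSR than in N2B27 (interaction 0.77, SE 0.15, adjusted p 0.00142). The change from naive cells to N2B27 day 4 did not pass the test of a difference between the experiments for any member, with the lowest adjusted p for OOEP (interaction -0.71, SE 0.26, adjusted p 0.0745). None of the 12 interactions passed the fold threshold, where 0.792% to 3.63% of all genes were called in a direction: edgeR made 0 calls with 8 values at an unadjusted p under 0.05, and DESeq2 made 0.

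Ratios within a library, which do not depend on its scaling, show the same divergence. The ratio of NLRP7 to NLRP2 counts was 1.81 to 3.35 in the 6 naive libraries and 1.69 or lower in all 32 others, down to 0.769 and 0.916 at E8 day 8, with 1.56 and 1.65 at mTeSR day 8. The ratio of KHDC3L to OOEP counts was 3.38 to 5.15 in naive libraries and went to 9.92 and 11.4 at N2B27 day 8, 23.4 and 24.3 at E8 day 8, and 20.9 and 31.1 at mTeSR day 8. At E8 day 2 it was 2.52 and 4.34, within or below the naive range. Since the assay's yield differs between genes, the ratios are read as changes and not as relative abundance.

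**Figure D4:**
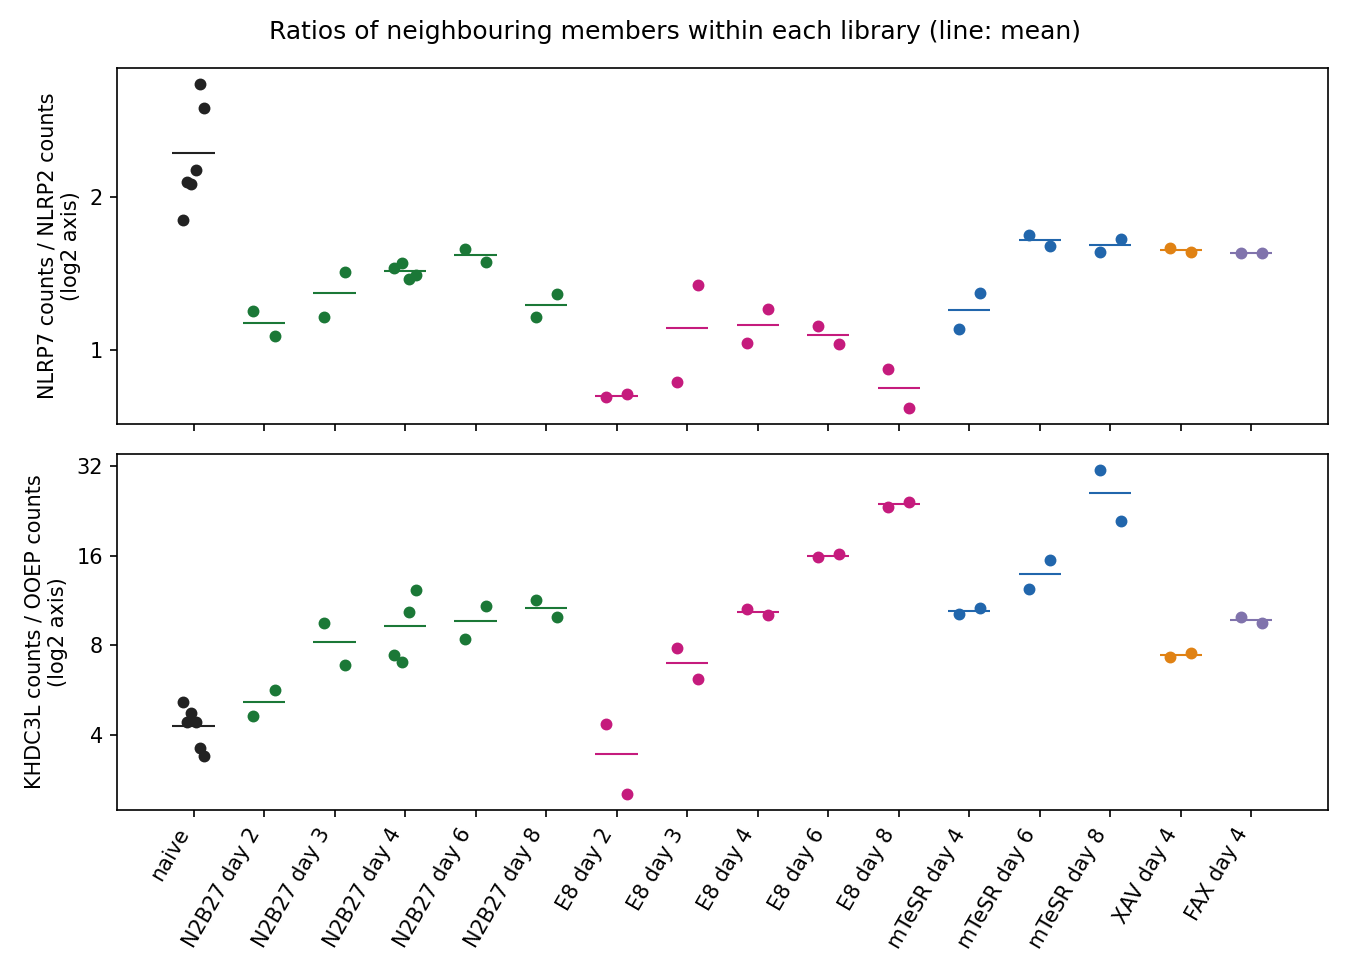
Ratio of NLRP7 to NLRP2 counts (top) and of KHDC3L to OOEP counts (bottom) in each library, by medium and day on log2 axes, with the mean as a line. The naive libraries hold the 6 highest NLRP7 to NLRP2 ratios, and the KHDC3L to OOEP ratio is highest at day 8 of E8 and mTeSR.

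The order of the 19 group means summarised each member. NLRP7 was highest in the 3 naive groups, which overlapped no other group and not each other (3325 ± 24.0, 2544 ± 64.9 and 2215 ± 197 CPM, SD, n = 2 each), and lowest at day 8 of E8 (310 ± 18.6). OOEP was highest in naive Geltrex Ex2 (77.6 ± 2.11), and ranks 2 to 14 of its order, from XAV day 4 to mTeSR day 4, formed a chain in which each group overlapped the next. E8 and mTeSR at day 8 (11.2 ± 2.83 and 13.5 ± 3.02) overlapped each other and no other group. NLRP2 was highest at E8 day 2 (2118 ± 61.0) and lowest at E8 day 8 (372 ± 67.9). KHDC3L was highest in XAV, FAX and N2B27 at day 4 of Ex2 (512 ± 12.8, 461 ± 2.02 and 444 ± 10.2), which did not overlap, and lowest at E8 day 2 (114 ± 29.4). With 2 libraries per group, a gap between groups says little on its own. NLRP7 in mTeSR and N2B27 at day 6 did not overlap either, at a log2 difference of 0.03 (adjusted p 0.916 by edgeR). The share of all genes with such gaps was not computed.

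Over the 19 group means of log2 CPM, which share libraries, depth and the time course, OOEP and NLRP7 had a Pearson correlation of 0.884, NLRP2 and NLRP7 0.805 and OOEP and NLRP2 0.721, whereas KHDC3L had 0.137, -0.271 and -0.035 with OOEP, NLRP2 and NLRP7. The 5 genes most like OOEP among 13774 were KHDC1L (0.959), SLC5A5 (0.945), PYY2 (0.924), MAGEB2 (0.920) and GTSF1 (0.910). Those most like NLRP7 were PNKD (0.936), MRPS12 (0.931), ZNF729 (0.924), AL365205.1 (0.923) and TEC (0.921), and those most like NLRP2 were SLC16A9 (0.952), AHSA1 (0.952), LINC01160 (0.950), the naive surface marker SUSD2 (0.949) and MYBL2 (0.946). KHDC3L was most like NUDT16L1 (0.924), HIF1AN (0.921), PPP2CA (0.920), IMP3 (0.911) and PIPSL (0.907), none of which is a gene of the lists. These choices were not stable: 0 to 2 of the 5 stayed among the 5 most like each member by Spearman correlation or without the naive groups, KHDC1L and SLC5A5 staying for OOEP both times.

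The KHDC1 and DPPA5 family, related by the KH domain, had at day 8 2 of 3 members called lower in N2B27, 3 of 3 in E8 and 3 of 3 in mTeSR, beside 7.03%, 9.24% and 8.20% of all genes. KHDC1L had 644 ± 131 CPM in naive cells (SD, n = 6) and 134, 47.9 and 51.7 CPM on average at day 8 of N2B27, E8 and mTeSR (log2 fold changes -2.26, -3.75 and -3.64). DPPA5, a KH domain gene of the pluripotent epiblast and the nearest gene on the other side of KHDC3L, had 401 to 540 CPM in naive libraries and 159 to 307 in all others, with log2 fold changes of -1.26, -1.11 and -1.13 at day 8. KHDC3L lies between DPPA5 and OOEP, both called lower at day 8 in all 3 media, and was called lower in none of them. OOEP-AS1, the antisense RNA across OOEP, had 0 to 2 counts, and the pseudogenes PAICSP3 and RPL39P3 had 0 to 3 and 0 to 85 counts. Around the NLRP pair, NCR1 had 17 to 133 counts, RDH13 had 19 to 200, FCAR had 0 to 5 and GP6 0 to 3. Next to PADI6, PADI4 had 0 to 2 counts, PADI3 had 0 to 18, and RCC2 and ARHGEF10L were expressed with 1288 to 3885 and 30 to 426 counts.

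Of the 12 other NLRP genes in the table, 4 were tested. NLRP9, an oocyte gene of low count (6.42 ± 1.73 CPM in naive cells), was called lower in each medium at day 8, down to 0 CPM in both mTeSR libraries, and NLRP4, another germline gene, in E8 alone (log2 fold change -1.34, adjusted p 0.00766). Among all genes tested, 7.03%, 9.24% and 8.20% were called lower at day 8 of N2B27, E8 and mTeSR. NLRP1, an inflammasome sensor, was called higher in all 3 media at day 8 (1.28, 1.47 and 1.11), and NLRP12 did not pass. As 1 of 4 genes tested, this is near the 16.9%, 18.2% and 16.9% of all genes called higher. Of the 4 other PADI genes 3 were tested, and 3, 2 and 3 of them were called higher at day 8 of N2B27, E8 and mTeSR, where 16.9%, 18.2% and 16.9% of all genes tested were. PADI2, a deiminase of somatic tissues, had at most 0.683 CPM in a naive library and rose to means of 9.95, 16.5 and 11.9 CPM at day 8 of N2B27, E8 and mTeSR. Of 17 oocyte genes in the table, 3 passed the filter. ZP3, a zona pellucida gene, had 33.6 ± 10.9 CPM in naive cells and no call at day 8, TUBB8, an oocyte tubulin, was called higher in N2B27 and mTeSR (log2 fold changes 1.10 and 1.21), and NPM2, an oocyte nucleoplasmin, lower in E8 (-1.54). These calls stand beside 16.9% of all genes called higher in N2B27 and in mTeSR and 9.24% called lower in E8. Of 4 cleavage-stage genes tested, 3, 3 and 1 were called higher at day 8 of N2B27, E8 and mTeSR, beside the same shares of all genes called higher, and 1 in each medium was called lower, where 7.03%, 9.24% and 8.20% of all genes were. The naive markers had 8, 7 and 8 of 9 genes called lower, beside the same 7.03%, 9.24% and 8.20%, with median log2 fold changes of -1.78, -2.14 and -2.49. DPPA3, a maternal factor of oocyte and epiblast that stands in that list, had values of -0.07, -0.23 and -0.17 that did not pass. Of 5 genes of imprint maintenance, UHRF1, a partner of DNMT1, was called lower in all 3 media at day 8 (-1.26, -1.39 and -1.13), beside the same 7.03%, 9.24% and 8.20%. ZFP57, the zinc finger that keeps imprints methylated, was called higher in E8 (1.24, adjusted p 3.50e-09 by edgeR). As 1 of 5 genes tested, this is near the 18.2% of all genes called higher. ZFP57 was named after its values were seen. The 3 pluripotency markers, POU5F1, NANOG and SOX2, gave 0 calls at day 8 by edgeR. Of 7 trophectoderm and amnion markers tested, 5, 3 and 2 were called higher and 1, 2 and 1 lower, against 16.9%, 18.2% and 16.9% of all genes called higher and 7.03%, 9.24% and 8.20% called lower. The 2 of 7 higher in mTeSR is close to its share. Their summed level was 22.6 to 32.5 CPM in naive libraries and 82.0 to 101 CPM in N2B27 at day 8. In the day 8 libraries of E8 (26.6 to 30.1 CPM) and mTeSR (24.9 to 29.3 CPM) it lay within the naive range. Of 4 fibroblast markers tested, 3 in each medium were called higher, beside the same shares of all genes called higher, with summed levels of 1.97 to 4.44 CPM in naive libraries and 102 to 172 at day 8. Most of that sum was the collagen genes COL1A2 (140, 64.6 and 121 CPM at day 8 of N2B27, E8 and mTeSR) and COL1A1 (22.6, 36.4 and 18.8 CPM). COL3A1, another collagen gene, was called higher in N2B27 alone, with a mean of 3.24 CPM, and POSTN, a matrix protein gene, in E8 and mTeSR, with means of 0.891 and 1.93 CPM. LUM and DCN, proteoglycan genes of fibroblasts, did not pass the filter and had means of at most 1.00 and 0.0937 CPM at day 8. The part of these marker levels in the members' values was not tested.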

How the data were processed

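Libraries were made by QuantSeq 3′ sequencing, in which a transcript gives 1 tag whatever its length, from Shef6 cells. The authors processed the reads with the nf-core/rnaseq pipeline (FastQC 0.11.9, STAR 2.7.10a and Salmon 1.9.0, per the submitters' processing notes) on hg38 and deposited raw counts per gene. The annotation release and the strand setting are not given in the sources used here.

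From the deposited counts of 57133 genes in 38 libraries, 16674 genes passed edgeR's filterByExpr. Scaling was by TMM, and levels are CPM of the scaled library. Tests were edgeR 4.0.16 quasi-likelihood F-tests (R 4.3.3) with Benjamini-Hochberg adjustment over all genes tested. Comparisons with naive cells used 1 fit of 16 levels of medium and day, pooling the 6 naive and the 4 N2B27 day 4 libraries over experiments, and all other comparisons used 1 fit of the 19 groups. The study's legends call the libraries of a group technical replicates in some places and biological replicates in another. No replicate pair agreed within counting noise (chi-square per gene at least 1.34), so none was merged. DESeq2 1.42.0, other scalings, filters, naive sets and covariates, and leaving out each library were alternatives, and 2 that leave out day 2 and day 3 libraries were chosen after seeing the data. The scripts were tested on simulated data.

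The members and gene lists were chosen with earlier results of these data known. Named are the members, up to 4 genes per list by highest mean CPM, the 5 genes most like each member by Pearson correlation of log2 CPM group means (prior count 2, at least 5 CPM in 1 group), and the 2 nearest genes with counts on either side in the GENCODE annotation. LUM and DCN of the fibroblast list and ZFP57 were named outside this rule.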

Additional observations from a re-analysis of the deposited data

Results flagged for a closer look

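In N2B27 at day 4, the first Ex1 library had 1444 CPM of NLRP7 and stood apart from the other 3 libraries, which lay between 1499 and 1510 CPM. It was the 1 such value among 10 sets of values that were read, and chance gives about 1 in 20. A set held the values of 1 gene over 4 to 10 libraries of the same medium and day. Only naive cells and N2B27 day 4, each pooled over experiments, had that many libraries.

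The change from day 2 to day 8 differed between E8 and N2B27 by a test of the difference itself for KHDC3L (interaction 0.96 on the log2 scale), NLRP2 (-0.83) and NLRP7 (-0.93). With the compared libraries alone, the adjusted p by edgeR was 0.0751 for KHDC3L and 0.0624 for NLRP2. The change of NLRP7 from day 4 to day 8 differed in the same way between mTeSR and N2B27 (0.77).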

How the results depend on the processing

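No member value with an adjusted p under 0.05 that was recomputed changed direction under the alternatives run. Of values that did not pass, OOEP in XAV was 0.07 on the log2 scale against all naive libraries and -0.17 within Ex2, and NLRP2 at N2B27 day 4 was -0.10, -0.18 within Ex1 and 0.03 within Ex2. The 19 calls against naive cells were 13 to 20 under other settings and 17 to 19 with each library left out. The 4 calls between media stood in each other setting that held the compared libraries, and were 3 to 4 with a library left out. The 4 calls between consecutive days became 2 with the compared libraries alone and ranged from 2 to 4 with a library left out. The interactions, with 0 calls, gave 1 with library totals and 1 without a filter, both KHDC3L in E8 against N2B27, and 0 to 3 with a library left out, the 3 without the second N2B27 day 2 library. The naive cultures and experiments gave 0 calls throughout. The cause of these shifts was not tested. With the replicate number as a block, the counts were 19, 4, 4, 0 and 0. Deviations of libraries of the same number correlated over 0.1 in 7 of 171 pairs of groups (median 0.0031), so the numbers were not taken to pair the libraries. OOEP and PADI6 are limited by depth, with 42 counts in the lowest OOEP library and at most 3 for PADI6.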
